A study of Homo sapiens with 8 samples.

Results

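Chromatin accessibility was compared between HEK293T cells carrying EZH2 Y641F and HEK293T cells carrying EZH2 WT. The comparison used 4 of the 8 ATAC-seq peak lists of the series, 2 libraries per line, on chromosomes 1 to 22. Overlapping peaks (1 bp or more) of these 4 libraries were joined, which gave 82102 regions, against 98302 when those of all 8 libraries were joined. A region was called lost when it had a peak in both WT libraries and in neither Y641F library, gained in the reverse case, and kept when all 4 libraries had a peak in it. Of the merged regions, 16562 were lost, 249 were gained and 19593 were kept, and the other 45698 were open in some other combination of libraries. A lost region is one without a called peak in Y641F, which does not mean that no signal was there.

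ATAC-seq cuts accessible DNA with the Tn5 transposase, so that peaks of sequenced fragments mark promoters, enhancers and other nucleosome-poor sites. HEK293T is an established human embryonic kidney line that also has some neuronal and adrenal features. According to the methods of the study, both lines were made by lentiviral transduction of HEK293T with an EZH2 construct followed by blasticidin selection, described as giving monoclonal populations. Whether both libraries of a line came from 1 clone is not given in the sources used here. The series is described as ATAC-seq and its protocol has a Tn5 transposition of lysed cells, although the library step in the labels is named CUT&Tag. The WT line therefore also carried an added EZH2, and no step that removed the endogenous EZH2 is described. The promoter that drove the constructs is not given in the sources used here. The 2 libraries of each line are described as independent biological replicates.

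EZH2 is the catalytic subunit of Polycomb repressive complex 2 (PRC2), which places methyl groups on lysine 27 of histone H3. The trimethylated form, H3K27me3, is found at silent developmental genes and is read by Polycomb repressive complex 1, which compacts chromatin. The Y641F substitution in the catalytic SET domain, known from B-cell lymphoma, makes the enzyme prefer the dimethylated substrate, and the study describes it as a gain-of-function mutation. HOX clusters, neuronal ion channels and receptors, WNT and Hedgehog ligands and forkhead factors are textbook Polycomb targets, whereas the promoters of ribosomal, mitochondrial and cell cycle genes are CpG-rich and open in nearly every cell.

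The sequences of 7 regions show what lost, gained and kept sites looked like. Each is the central 200 bases of the region on the plus strand of hg38, with the letters of the searched motifs in capitals (SP/KLF box GGGCGG, CTCF core CCANNAGNNGGC, TEAD box GGAATG, NFY box CCAAT and TCF/LEF box TCAAAG, on either strand). In the central 200 bases of all 82102 merged regions these letters were found in 15.6%, 5.59%, 11.4%, 21.7% and 10.6% in that order, so a match is common for all but the CTCF core. Adjoining SP/KLF and TEAD letters form 1 run of capitals at ULK1. The lost set holds the promoter with the best WT rank, a promoter and an intronic site with the CTCF letters, and the promoter of an autophagy kinase. The gained set holds a promoter and an intronic site, and the kept site is a promoter among the strongest in all 4 libraries.
lost, upstream of CD300LG, chr17:43846316-43846515: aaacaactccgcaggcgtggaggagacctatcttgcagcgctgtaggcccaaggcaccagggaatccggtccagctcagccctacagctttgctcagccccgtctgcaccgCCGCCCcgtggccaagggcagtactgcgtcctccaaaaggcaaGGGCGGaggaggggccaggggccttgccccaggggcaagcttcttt
lost, intron of STK24 next to its start, chr13:98466785-98466984: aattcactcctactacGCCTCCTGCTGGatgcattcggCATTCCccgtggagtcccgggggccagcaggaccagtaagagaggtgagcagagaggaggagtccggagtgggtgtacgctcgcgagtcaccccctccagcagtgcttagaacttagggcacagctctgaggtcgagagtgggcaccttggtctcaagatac
lost, start of ULK1, chr12:131894413-131894612: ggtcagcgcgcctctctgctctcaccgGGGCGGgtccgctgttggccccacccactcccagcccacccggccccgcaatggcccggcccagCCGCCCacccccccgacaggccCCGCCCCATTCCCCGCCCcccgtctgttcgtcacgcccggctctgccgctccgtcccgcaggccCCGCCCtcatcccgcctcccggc
lost, intron of FGF1, chr5:142655759-142655958: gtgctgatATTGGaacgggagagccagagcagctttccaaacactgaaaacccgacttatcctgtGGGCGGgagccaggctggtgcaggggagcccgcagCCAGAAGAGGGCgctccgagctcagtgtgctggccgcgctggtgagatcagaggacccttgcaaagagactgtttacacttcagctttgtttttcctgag
gained, start of PLA2G12B, chr10:72954882-72955081: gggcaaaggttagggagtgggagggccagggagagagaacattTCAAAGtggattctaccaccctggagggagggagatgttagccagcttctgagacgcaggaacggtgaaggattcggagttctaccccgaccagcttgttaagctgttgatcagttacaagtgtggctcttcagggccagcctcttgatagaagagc
gained, intron of CDC14A, chr1:100355005-100355204: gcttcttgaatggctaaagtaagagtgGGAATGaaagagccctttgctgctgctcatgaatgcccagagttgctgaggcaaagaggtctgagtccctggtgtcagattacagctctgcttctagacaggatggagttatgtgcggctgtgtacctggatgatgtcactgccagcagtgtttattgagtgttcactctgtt
kept, start of METTL13, chr1:171781360-171781559: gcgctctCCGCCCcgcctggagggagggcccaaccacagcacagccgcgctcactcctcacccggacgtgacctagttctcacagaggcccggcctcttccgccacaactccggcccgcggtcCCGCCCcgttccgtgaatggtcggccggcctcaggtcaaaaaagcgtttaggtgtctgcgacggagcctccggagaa

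The Y641F libraries held fewer peaks than the WT libraries. WT replicates 1 and 2 had 62739 and 60420 peaks, and Y641F replicates 1 and 2 had 25423 and 35380. The groups did not overlap, and Y641F replicate 1 was the lowest of the 4. The mean was 61579.5 ± 1640 (SD, n = 2) in WT and 30401.5 ± 7041 (SD, n = 2) in Y641F, a difference of -1.04 on the log2 scale. An exact two-sided permutation test of 2 against 2 libraries gave p = 0.333, the smallest p that this design allows, so no comparison of single values between the lines can pass a threshold of 0.05. Peaks covered 41.1 and 39.9 Mb in WT and 14.6 and 21.6 Mb in Y641F. Their mean width was 655 and 660 bp in WT and 575 and 611 bp in Y641F. Promoters, taken as 1 kb on each side of a protein-coding start site, held 22.9% and 23.6% of WT peaks and 43.1% and 35.3% of Y641F peaks. The read depth of the libraries is unknown, and how far the number of peaks follows depth or library quality was not tested. The number of peaks moved with every class described here.

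For this reason each comparison was repeated with the same number of peaks per file, ranked by −log10 p, as many as the smallest file holds. In this setting the weakest peak included had a −log10 p of 6.85119 in WT replicate 1, 6.74503 in WT replicate 2 and 4.65529 in Y641F replicate 2, against 6.85116, 6.74494 and 4.65523 for the first peak left out. Y641F replicate 1 entered whole, down to a −log10 p of 3.31. A WT peak thus had to be stronger than a Y641F peak to be counted.

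Marker genes of several cell types were read at their promoters. Since every library is from HEK293T, they bear on the cell line and cannot check which EZH2 a library carried. Of 14 kidney lineage regulators 12 were open in both WT libraries and 10 in all 4, PAX8 and OSR1 being the ones closed in Y641F. Of 14 neuronal and adrenal identity genes 11 were open in both WT libraries, and 2 were closed, among them ELAVL4. Over all protein-coding genes open in both WT libraries 6.83% were closed. With the top peaks none of 6 kidney and none of 5 neuronal and adrenal genes was closed. There PAX2, EMX2 and TUBB3 had a peak in both Y641F libraries and in neither WT library. With every peak these genes were open in all 4 libraries. By contrast, 7 of 12 B-cell genes and 10 of 13 hepatocyte, erythroid and muscle genes had no promoter peak in any of the 4 libraries. Even so, 3 B-cell genes were open in both WT libraries, and none of these was closed with every peak. TNNT2 and APOB of the hepatocyte, erythroid and muscle list were open in both WT libraries, and both were closed in Y641F. The promoter of endogenous EZH2 was open in all 4 libraries, with folds over local background of 3.58 and 3.90 in WT and 3.76 and 3.77 in Y641F. This peak belongs to the endogenous gene and so does not check the labels either.

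Both WT libraries had a peak in 46977 regions, and 16562 of these (35.3%) were lost in Y641F. A further 10822 were open in 1 Y641F library only, 9223 of them in replicate 2 and 1599 in replicate 1. Kept regions held 31.5% and 32.7% of the WT peaks but 79.2% and 56.8% of the Y641F peaks, so the Y641F lists were largely a subset of sites that WT also had. Gained regions were 249 of the 20177 open in both Y641F libraries (1.23%). With the top peaks, 2396 of 20595 regions were lost (11.6%), 1480 of 18156 were gained (8.15%) and 14936 were kept. Of the regions lost with every peak, 1804 were also lost with the top peaks, which is 10.9% of the former and 75.3% of the latter, while 11145 had no peak among the top peaks at all. Of the regions gained with the top peaks, 1275 of 1480 had a peak in all 4 libraries when every peak was used, and 75 were gained in both settings (30.1% of the 249 and 5.07% of the 1480).

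**Figure D1:**
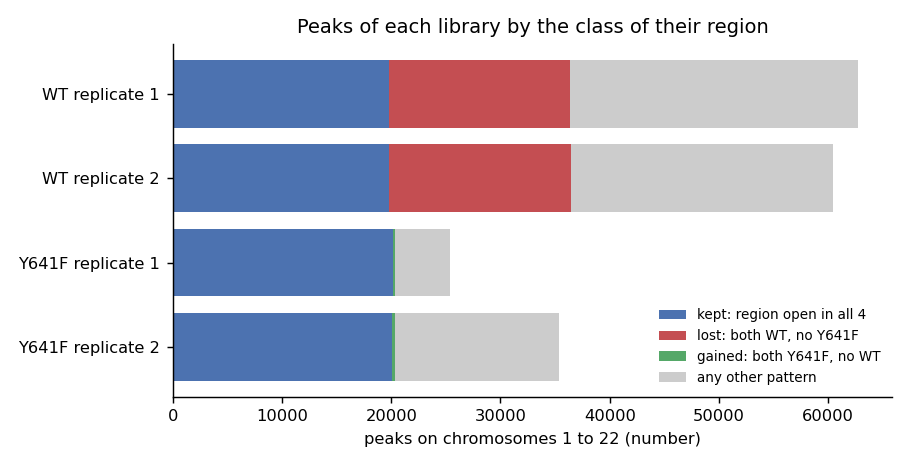
Number of peaks on chromosomes 1 to 22 (x axis) in each of the 4 libraries (y axis), with each bar divided into peaks in kept, lost or gained regions and in the other regions. Kept-region peaks number from 19762 to 20123 in every library, whereas 16601 and 16631 WT peaks lie in lost regions and 249 and 250 Y641F peaks in gained regions.

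Lost regions lay mostly outside promoters. Among regions open in both WT libraries, 1472 of 13648 promoter regions were lost (10.8%), against 15090 of 33329 other regions (45.3%). The share lost was 42.5% in exons, 47.9% in introns and 43.8% between genes. With the top peaks it was 2.87% for promoters, 22.4% for exons, 23.3% for introns and 17.5% between genes. Promoters made up 8.89% of lost regions, 53.3% of kept regions and 7.23% of gained regions, which is 18 of 249.

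Lost regions were narrow and weak in WT. The median WT peak was 410 bp wide with a −log10 p of 5.28 and a fold of 3.65 in lost regions, and 989.5 bp wide with a −log10 p of 10.5 and a fold of 4.41 in kept regions. WT regions were therefore divided into 5 classes of equal number by peak size, the product of −log10 p and width averaged over the WT libraries. From the smallest to the largest size class, 77.2%, 57.8%, 32.6%, 8.45% and 0.21% of the regions were lost, the last being 20 of 9396 regions. Within size classes the order of promoters and other regions was not constant, with 76.2% against 77.3% lost in class 1, 54.3% against 58.1% in class 2, 35.6% against 32.1% in class 3 and 5.98% against 9.91% in class 4. The smallest class held 530 promoters and 8866 other regions, and the largest held 7632 promoters and 1764 other regions. Among the top peaks the shares lost were 40.6%, 13.5%, 3.69%, 0.44% and 0%, and in class 1 they were 37.7% for promoters and 40.8% for other regions. Peak size in WT thus ordered the losses in both settings, and the lower share of lost promoters moved with their larger peaks.

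**Figure D2:**
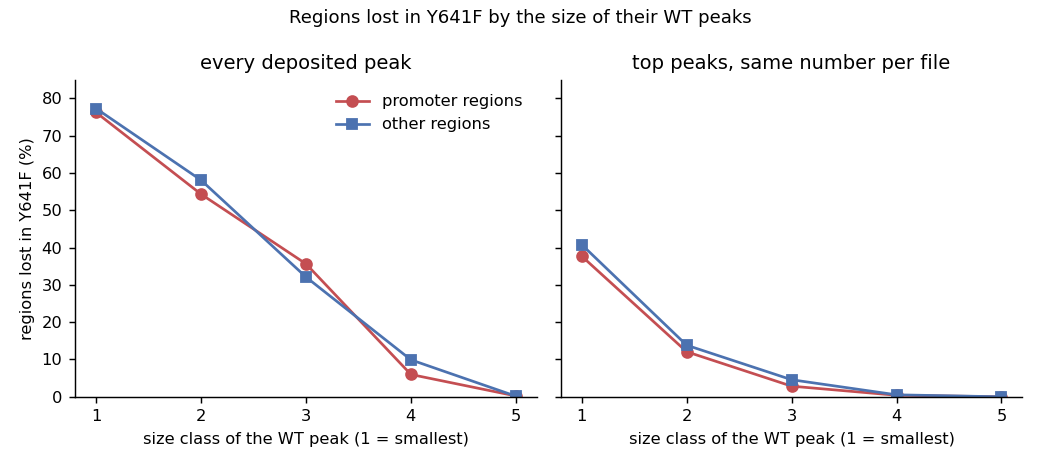
Percent of regions open in both WT libraries that were lost in Y641F (y axis) by size class of the WT peak from smallest to largest (x axis), for promoter regions and other regions, with every peak and with the same number of top peaks per file. The share falls from 76.2% of promoters and 77.3% of other regions in the smallest class to 0.22% and 0.17% in the largest.

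Base composition differed between the classes. The median GC content was 48.5% in lost, 60.5% in kept and 53.0% in gained regions, and the median ratio of observed to expected CpG was 0.24, 0.65 and 0.17. A ratio above 0.6, as in CpG islands, was found in 11.3% of lost, 54.1% of kept and 4.42% of gained regions. Outside promoters the gap was smaller, with a median GC content of 48.0% in lost and 51.0% in kept regions. Among regions outside promoters that were open in both WT libraries, 48.5% were lost below 40% GC, 50.2% between 40% and 50%, 44.8% between 50% and 60%, 34.3% between 60% and 70%, and 22.2% at 70% or more. The median WT peak size also differed between these bins, from 2735 between 40% and 50% GC to 6307 at 70% or more. With the top peaks the share lost was highest between 50% and 60% GC, against 18.8% below 40% and 9.29% at 70% or more. Outside promoters, the median GC content within size class 1 was 48.5% in lost and 48.0% in kept regions. Within size class 4 it was 46.5% and 51.5%.

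Motif letters were searched in the central 200 bases on both strands. They are counts of letters and do not show that a factor bound. Outside promoters, the CTCF core, which binds the insulator and loop-anchor protein CTCF, was found in 9.7% of lost, 5.5% of kept and 0.4% of gained regions, against 6.3% of all merged regions. The AP-1 site TGANTCA, bound by FOS and JUN dimers, was found in 9.8%, 7.5% and 5.2%, against 8.5%, but among the top peaks in 7.9%, 7.2% and 9.5%, against 8.1%. The SP/KLF box was the reverse, with 7.8% of lost and 15.2% of kept regions, against 8.0%. This order also depended on peak size. Within size class 1 the box was in 7.3% of lost and 6.8% of kept regions, and within size class 4 in 10.3% and 15.7%. Within size class 1 of the top peaks it was in 12.2% of lost and 10.8% of kept regions. The CTCF core was, among the top peaks, in 15.8% of lost and 6.2% of kept regions. The order for CTCF depended on peak size, since within size class 1 it was in 12.3% of lost and 5.4% of kept regions, whereas within size class 3 it was in 5.1% and 8.1%. At promoters open in both WT libraries, those with the ETS letters CCGGAAG were lost in 3.9% of cases against 11.4% without them, and those with the NRF1 letters GCATGCGC in 3.2% against 10.9%. ETS and NRF1 sites are features of housekeeping promoters. Promoters with the AP-1 site were lost in 21.6% against 10.5% without it, and those with TATAAA in 19.1% against 10.6%. With the top peaks these shares were 1.47% against 3.01% for ETS, 2.26% against 2.88% for NRF1, where 5 of 221 were lost, 5.18% against 2.82% for AP-1 and 5.94% against 2.80% for TATAAA. Of all 15264 merged promoter regions, 7.15% held the ETS letters, 1.65% the NRF1 letters, 2.61% the AP-1 site and 3.04% TATAAA.

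**Figure D3:**
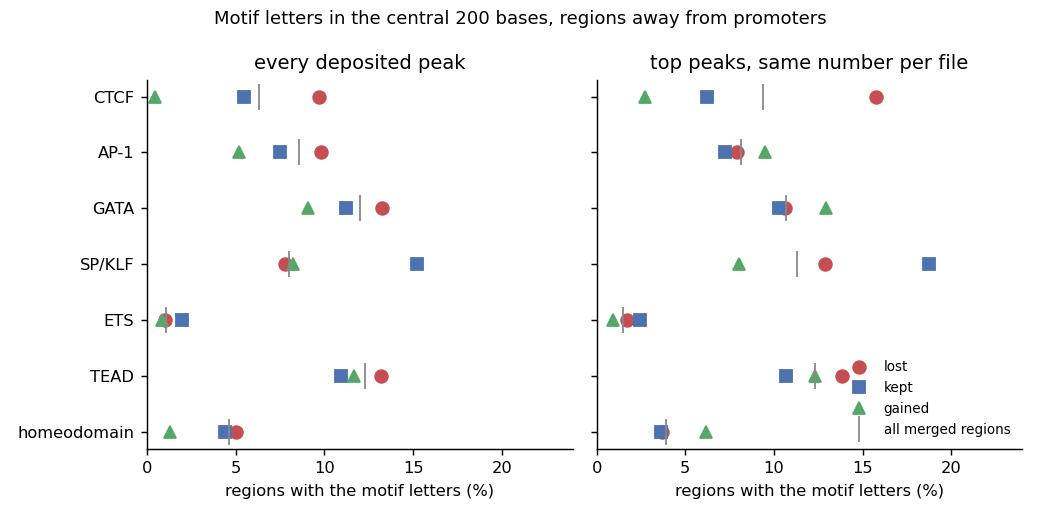
Percent of regions outside promoters (x axis) that hold the letters of 7 motifs (y axis) in their central 200 bases, for lost, kept and gained regions and, as a vertical line, all merged regions; left with every peak, right with the same number of top peaks per file. The CTCF point of lost regions lies at 9.7% on the left and 15.8% on the right, above kept regions at 5.5% and 6.2%.

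Of the promoter regions lost with every peak, the 12 with the best WT rank by −log10 p are described here. They were also lost with the top peaks, which follows from their choice, since their WT peaks ranked inside that list and no Y641F library had a peak there. The region upstream of CD300LG, which encodes an endothelial sialomucin receptor, lay at chr17:43846249-43846583 and had folds of 6.42 and 5.82 in WT replicates 1 and 2. FGD4, a guanine nucleotide exchange factor for CDC42, had 6.02 and 5.23. SLC38A4, an amino acid transporter, had 6.15 and 6.25. INPP5F, a phosphoinositide phosphatase, had 6.54 and 4.89. All of these are above the median fold of lost regions, and no Y641F library had a peak in these regions. STK24, a kinase of the sterile 20 family, had folds of 5.77 and 5.37. FXYD6, a regulator of the sodium pump, had 5.32 and 5.14. SGSM1, which carries a Rab GTPase-activating domain, had 4.78 and 4.26. DNAAF3, needed to assemble the dynein arms of cilia, had 4.70 and 4.03. The remaining 4 had folds between 3.32 and 4.22. FAM78A had 4.22 and 4.12. ULK1, the kinase that starts autophagy, had 3.83 and 3.58. SMARCD2, a subunit of SWI/SNF remodellers, had 3.55 and 3.88. RPS15, a protein of the small ribosomal subunit, had 3.32 and 3.42. The loss refers to these regions and not to whole genes. Of the 12 genes, CD300LG, FAM78A, ULK1, SLC38A4 and RPS15 had no Y641F peak within 1 kb of any start. The others had a Y641F peak elsewhere within 1 kb of a start. At 10 of these 12 promoters all 4 libraries of the A677G and H689A/F667I lines also had a peak, and at INPP5F and STK24 2 of the 4 did. Of all 16562 lost regions only 12.7% were open in all 4 of these libraries, and the 12 were chosen for strong WT peaks.

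**Figure D4:**
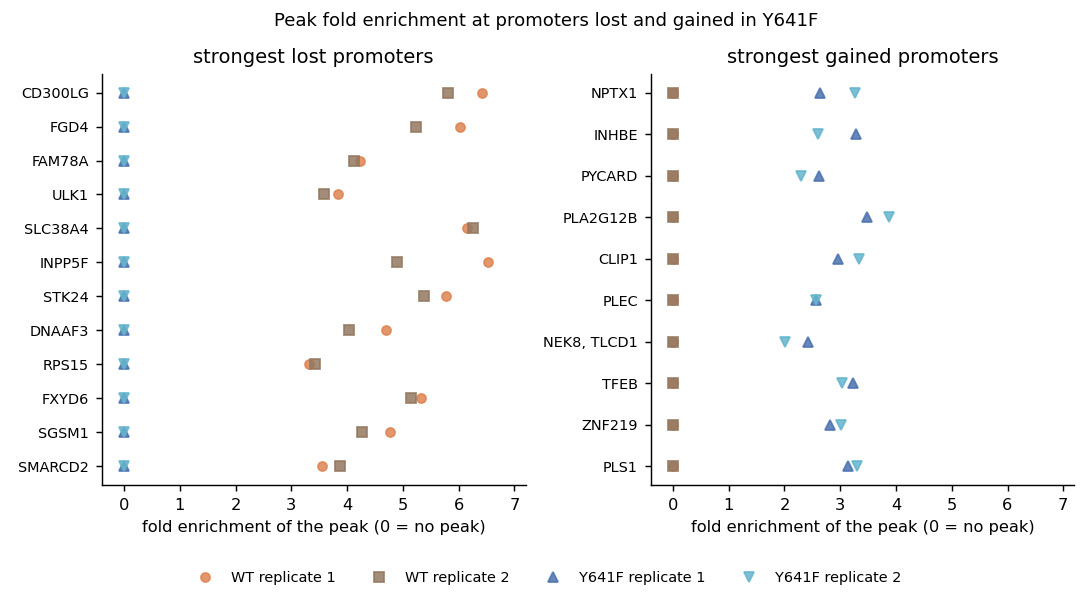
Fold enrichment of the peak over local background (x axis, 0 where the library has no peak) at the 12 lost promoters with the best WT rank (left) and the 10 gained promoters with the best Y641F rank (right), 1 marker per library. The WT points of lost promoters lie between 3.32 and 6.54 and the Y641F points of gained promoters between 2.02 and 3.88.

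Outside promoters, 1642 regions were lost in both settings. The strongest by WT rank lay 81845 bp from the start of CRISPLD1, with folds of 7.39 and 6.35 in WT replicates 1 and 2. An intronic site of AHRR, the repressor of the aryl hydrocarbon receptor, at chr5:430814-431281 had 5.89 and 5.55. A site upstream of VDAC1, the pore of the outer mitochondrial membrane, had 6.68 and 6.47. Introns of LHFPL2, RCAN1, NEK10 and GNA14, an exon of EVI5L and a site near TMEM235 held others, with folds between 4.83 and 7.64. RCAN1 inhibits calcineurin, and its site had 6.15 and 6.52. The intronic site of FGF1, a growth factor gene, at chr5:142655694-142656024 had 5.74 and 6.03 and is the one whose CTCF letters are shown above. Of these 10 sites, 9 had a peak in all 4 libraries of the other lines and the FGF1 site in 3. Of all lost regions 12.7% had a peak in all 4, and these sites were chosen for strong WT peaks.

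At the level of genes, a protein-coding promoter was called closed when its window of 1 kb on each side of any start held a peak in both WT libraries and in neither Y641F library. Of 18773 protein-coding genes 13371 were open in both WT libraries, and 913 of these were closed (6.83%). The top peaks gave 232 of 10829 closed (2.14%). The 111 genes closed in both settings were 12.2% of the former and 47.8% of the latter. Closed genes came mostly from the smallest of 5 size classes of the WT peak, where 839 of 2675 were closed (31.4%), against 61 of 2674 in the next class and 1 of 2674 in the largest. Each group of genes below is read against 6.83%, or within the smallest size class against 31.4%. The groups and lists carry no test. Y641F replicate 1 had the fewest peaks, and without it 1027 genes were closed (7.68%).

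Of 8 groups, genes of neuronal excitability had the highest share closed. Of 112 such genes open in both WT libraries 38 were closed (33.9%), and 42 (37.5%) when Y641F replicate 1 was left out. They had small WT peaks, with a median size of 6952 against 14306 over all open genes, and 55.4% of them were in the smallest size class. Within that class 35 of 62 were closed (56.5%), where their median size was also lower, 3972 against 4989. Only 58 were open in both WT libraries with the top peaks, and 2 of these were closed (3.45%). Adhesion, matrix and guidance genes had 25 of 187 closed (13.4%), signalling genes 22 of 196 (11.2%) and developmental regulators 24 of 240 (10.0%). Within the smallest size class these 3 groups had 31.2%, 31.8% and 32.8% closed, close to the 31.4% of all genes there. Housekeeping genes had 6 of 365 closed (1.64%) and chromatin genes 8 of 133 (6.02%). None of the 62 cell cycle genes was closed in either setting. Without Y641F replicate 1 the counts were 27 adhesion, 27 signalling, 25 developmental, 7 housekeeping and 8 chromatin genes, and 0 of the cell cycle genes.

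**Figure D5:**
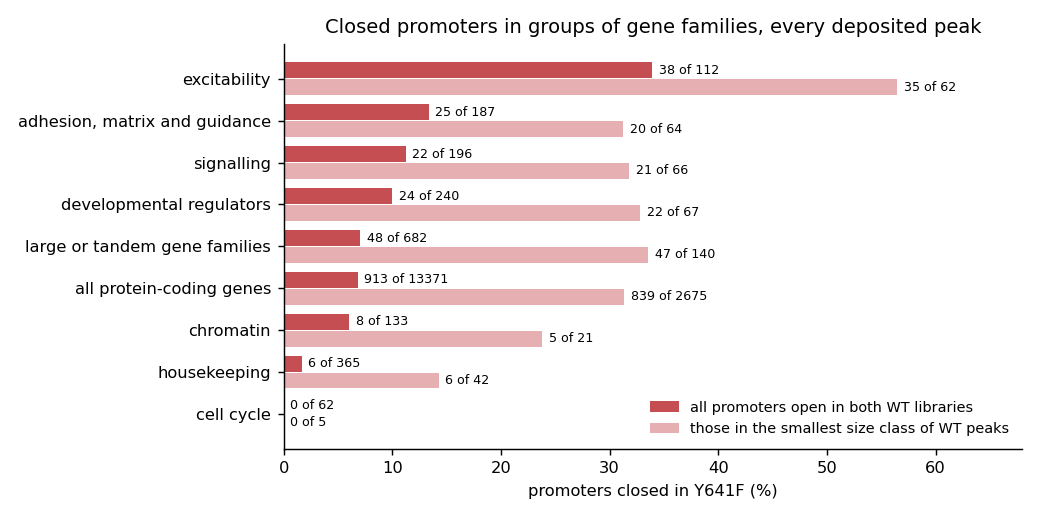
Percent of the genes open in both WT libraries whose promoter was closed in Y641F (x axis) for 8 groups of gene lists and all protein-coding genes (y axis), over all such genes (dark bars) and within the smallest size class of the WT peak (light bars), with the counts beside each bar. All protein-coding genes stand at 6.83% and 31.4%. Excitability genes stand at 33.9% overall and 56.5% in the smallest class, and cell cycle genes at 0.

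Among glutamate receptors, which carry fast excitatory transmission and its metabotropic modulation, 8 of the 17 promoters open in both WT libraries were closed (47.1%). GRM4 had folds of 4.07 and 3.90 in WT replicates 1 and 2 and was the only one of them also closed with the top peaks. GRIN3A had 4.17 and 3.74, GRM5 3.42 and 3.96, GRIA4 3.81 and 3.83, and GRIN3B 2.58 and 2.69. GRIN1, the obligatory subunit of NMDA receptors, had 2.97 and 2.65, and GRM7 had 3.11 and 2.99. None of the 8 had a peak in either Y641F library. Among GABA receptors, the main inhibitory receptors, 4 of 7 open promoters were closed. GABRA2 had 3.96 and 3.91, and GABRB2 had 2.84 and 2.88 and no peak in any library of the other lines.

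Among sodium and calcium channels, which fire and transduce action potentials, 11 of 28 open promoters were closed (39.3%). CACNA1B, the N-type channel of presynaptic terminals, had folds of 3.80 and 3.53 in WT. CACNB1 had 3.44 and 2.88, CACNA1E 3.75 and 3.61, CACNG8 4.14 and 4.18, CACNA1D 3.86 and 3.53, and CACNG4 3.73 and 2.90. CACNG6, CACNA1C, SCN7A and SCN1A were others. None of the 14 channels of this list that were open in WT with the top peaks was closed there. Among potassium channels, which repolarize the membrane, 15 of 60 were closed (25%). KCNG2 had 4.36 and 4.80, KCNJ11, the pore of the ATP-sensitive channel, 3.33 and 3.15, KCND3 3.33 and 3.45, KCNH3 3.03 and 3.06, and KCNC2 4.18 and 3.75. KCNAB1 was closed only with the top peaks, with 4.37 and 4.06 in WT and a weak peak of 2.83 in Y641F replicate 2.

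Among developmental regulators, 5 of 27 open HOX genes were closed. HOXB2 had folds of 3.02 and 2.84 in WT, HOXC11 2.78 and 2.79, HOXA9 1.88 and 1.95, HOXA5 2.00 and 1.88, and HOXA11 1.91 and 1.94. No HOX gene was closed with the top peaks, and HOXA4 and HOXC5 were newly open. With every peak both of these were open in all 4 libraries, HOXA4 with 2.69 and 2.74 in WT and 3.51 and 3.67 in Y641F. Of 33 open forkhead genes 7 were closed, namely FOXS1, FOXC2, FOXC1, FOXE1, FOXK1, FOXA1 and FOXN4. FOXS1 had 4.18 and 3.22, FOXC2, a regulator of mesenchyme and lymphatics, 3.42 and 3.13, and FOXA1, a pioneer factor of endoderm, 2.58 and 2.41. FOXO3, FOXF1 and FOXO1 were newly open with the top peaks, but with every peak they were open in all 4 libraries. Of all genes open in both Y641F libraries with the top peaks, 2.34% were newly open. Of other homeodomain and paired factors 6 of 91 were closed (6.59%), among them PAX8, PAX7 and PAX1.

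Among signalling genes, 7 of 41 open WNT pathway genes were closed. They were the ligands WNT16, WNT4, WNT3A and WNT7A, the antagonist SFRP5, the agonist RSPO1 and the coreceptor LRP5. WNT16 had folds of 3.52 and 3.72, WNT4 3.53 and 3.04, SFRP5 3.62 and 2.88, WNT3A 2.90 and 2.68, WNT7A 2.87 and 2.74, and RSPO1 3.19 and 3.16. Of 22 open FGF genes 4 were closed, namely FGFBP1, FGF8, FGF3 and FGF14. FGFBP1, a secreted carrier of FGFs, had 5.19 and 5.27 and was closed in both settings. The morphogen SHH had 2.35 and 2.84, the Notch ligand JAG2 2.74 and 2.75, and GLI4 3.21 and 3.19, and these were 3 of 17 open Notch and Hedgehog genes. Of 20 open interleukin and chemokine genes 6 were closed, with IL11 (3.01 and 3.81), CXCL14 (3.91 and 3.80), IL7, CXCL16, IL4R and IL19 in order of WT rank. Of 44 open BMP, TGF-beta and SMAD genes 2 were closed (4.55%), BMP1 and INHBB.

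Among adhesion and guidance genes, 6 of 28 open semaphorin, plexin and neuropilin genes were closed. SEMA3B had folds of 3.05 and 3.21 and was closed in both settings, and SEMA4A had 3.24 and 3.54, SEMA6B 3.72 and 3.17, PLXNC1 3.68 and 3.21, PLXNB2 3.07 and 2.58, and PLXNB1 2.86 and 2.64. Of 53 clustered protocadherins, which give neurons a surface identity, 41 had no promoter peak in any of the 4 libraries and 7 were open in both WT libraries, of which PCDHA11, PCDHGA7 and PCDHGA11 were closed. ADAM12, ADAMTS5, ADAMTS12 and ADAMTS8 were closed among 29 open proteases of that family. COL6A1, COL18A1 and COL22A1 were closed among 30 open collagens.

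The share closed was near that of all genes for chromatin genes, and for housekeeping genes it was below it with every peak but near it with the top peaks, where 7 of 343 were closed (2.04%) against 2.14%. All 12 PRC2 genes were open in both WT libraries and in both Y641F libraries, among them SUZ12 with folds of 4.37, 4.43, 3.94 and 3.92 and EED with 3.54, 4.00, 3.41 and 3.56 in WT replicates 1 and 2 and Y641F replicates 1 and 2. Of 22 PRC1 genes 1 was closed, CBX6, with 2.39 and 2.54 in WT. SWI/SNF remodellers had 5 of 27 closed with every peak, namely SMARCD3, ACTL6B, BICRAL, BCL7A and BRD7, and none of 21 with the top peaks. ACTL6B, the neuronal actin-like subunit, had 4.24 and 3.85, and SMARCD3 3.35 and 3.56. Among cytosolic ribosomal proteins RPS15 and RPS2 were closed in both settings, 2 of 78. None of 75 mitochondrial ribosomal proteins, 76 oxidative phosphorylation subunits and 20 aminoacyl-tRNA synthetases was closed with every peak. With the top peaks RPS16, MRPS34, MRPL12, ATP5F1D and CYC1 were closed, but with every peak 1 Y641F library had a peak at each. The ribosomal genes RPL12, RPL7A and RPL38 were newly open with the top peaks and open in all 4 libraries with every peak. Of 410 open ZNF genes 24 were closed (5.85%), and ZNF233, ZNF502, ZNF358, ZNF121, ZNF649 and ZNF577 were closed in both settings, with WT folds between 4.57 and 5.92. The study lists 108 shared targets of its gain-of-function mutants, and of these FGFBP1, WNT16 and JPH3 were closed (2.78%), and with the top peaks FGFBP1 and TSPAN11. With every peak 97 of the 108 were open in all 4 libraries. The measures differ, since the study called lower accessibility by a differential test on read counts, joined with H3K27me3 and transcript changes. Closed here means that no Y641F peak was called at the promoter, so 2.78% does not grade the study's list. That list was chosen partly on these libraries and is not independent evidence.

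With every peak 8 of the 11107 genes open in both Y641F libraries had no peak in either WT library (0.072%), and with the top peaks 250 of 10697 (2.34%), beside the 232 closed there. Without Y641F replicate 1 there were 82 newly open genes, and without Y641F replicate 2 there were 46. The 8 found with every peak and all 4 libraries were CAVIN2, CD36, CTSK, LEFTY1, PLA2G12B, PYCARD, SOX15 and TAC3. CTSK, the collagenase of osteoclasts, had folds of 3.36 and 2.74 in Y641F replicates 1 and 2. CD36, a fatty acid and lipoprotein scavenger receptor, had 3.31 and 4.20. CAVIN2, a coat protein of caveolae, had 3.06 and 3.12. These 3 had no peak in any library of the other lines. PYCARD, the adaptor of inflammasomes, had 2.63 and 2.29 and a peak in all 4 libraries of the other lines. PLA2G12B, a secreted phospholipase-like protein, had 3.48 and 3.88. LEFTY1, an antagonist of Nodal, had 2.75 and 2.55, and TAC3, the neurokinin B precursor, 2.80 and 2.62. SOX15 had the lowest fold of the 8 in replicate 1, 2.16. CD36, PLA2G12B and PYCARD were newly open in both settings, which is 37.5% of the 8 and 1.20% of the 250.

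Gained promoter regions can also lie at genes with another start open in WT. The gained promoters with the best Y641F rank were NPTX1, a pentraxin of synapses, with folds of 2.63 and 3.26 in Y641F, INHBE, an activin subunit, with 3.29 and 2.60, PYCARD and PLA2G12B, and CLIP1, a microtubule plus-end protein, with 2.97 and 3.33. These 5 and TRIM54 were gained in both settings. TFEB, the master regulator of lysosomal genes, had 3.22 and 3.02, ZNF219 2.82 and 3.01, PLS1 3.14 and 3.29, and the start shared by NEK8 and TLCD1 2.42 and 2.02.

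Outside promoters, 69 gained regions were gained in both settings. The median Y641F peak of a gained region was 390.5 bp wide with a fold of 3.18. The strongest by Y641F rank was at chr22:11212940-11213161, next to the centromere, with folds of 5.28 and 5.93. Introns of OPRL1, the nociceptin receptor, with 4.38 and 4.07, of CDC14A with 2.79 and 2.77, of ELL2 with 4.95 and 3.94, and of GRIK2 with 5.55 and 3.85 were others. The central 200 bases of the chromosome 22 site and of the OPRL1 site each hold repeated copies of a short unit. The chromosome 22 stretch had 21.5% GC and held TCAAAG 4 times. How uniquely reads map to such repeats was not tested. Remaining sites lay in introns of RRP12, PTPRK and RASGEF1B and far from genes, with 1103721 bp to BRINP3 and 1978485 bp to CDH6. All 10 sites had a peak of 340 bp or less in Y641F replicate 1.

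The A677G and H689A/F667I libraries took no part in the classes and had peaks at some lost regions and at most kept regions. Of the 16562 lost regions, 3089 (18.7%) were open in both A677G libraries and 5399 (32.6%) in both H689A/F667I libraries, and 4082 (24.6%) had no peak in any of these 4 libraries. Of the kept regions, 18106 (92.4%) were open in all 4. Of the 249 gained regions 117 (47.0%) had no peak in the other lines and 10 (4.02%) were open in all 4. These libraries also had fewer peaks than WT, between 36744 and 47164 on these chromosomes.

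The HOX clusters are read against the 35.3% of WT regions lost overall and the smaller length in Y641F peaks genome-wide given above. In the HOXA cluster (chr7:27092993-27200091), peaks covered 17728 and 20703 bp in WT and 4961 and 5073 bp in Y641F, and 10 of its 20 WT regions were lost. In the HOXB cluster 21908 and 21090 bp were covered in WT and 6808 and 11439 bp in Y641F, with 7 of 22 regions lost. The HOXC cluster had 18393 and 18223 bp in WT and 7065 and 11762 bp in Y641F, with 5 of 16 lost. The HOXD cluster had 13884 and 13299 bp in WT and 6230 and 8014 bp in Y641F, with 1 of 11 lost. In all 4 clusters both Y641F values were below both WT values. The top peaks gave the HOXA cluster 3 of 6 regions lost and 4 gained, the HOXB cluster 2 of 8 lost and 1 gained, HOXC none of 5 lost and 3 gained, and HOXD none of 10 lost or gained.

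Along the chromosomes, windows of 1 Mb with at least 20 regions open in both WT libraries had a median of 33.3% lost over 1027 windows, with percentiles 5 and 95 at 17.3% and 50%. The highest share was at 98 to 99 Mb of chromosome 13, where 15 of 21 regions were lost (71.4%) around IPO5, FARP1, STK24, SLC15A1 and DOCK9. Windows around CACNG4 on chromosome 17 (15 of 23) and CADM1, a synaptic adhesion molecule, on chromosome 11 (13 of 20) followed, with others at DOCK2, TESC, JAKMIP3 and THBD and on chromosome 22. Their median WT ranks lay between 25998 and 38006. These 8 windows had, with the top peaks, between 0 and 3 lost regions each, but few regions in all. The counts were 3 of 6 on chromosome 13, 3 of 8 at JAKMIP3 and 3 of 9 at THBD. They were 0 of 1 at CACNG4, 0 of 5 at DOCK2 and 1 of 5 or 1 of 6 in the rest. Over all regions 11.6% were lost in that setting. The lowest shares were on chromosome 19, with 1 of 28 regions lost at 57 to 58 Mb and 1 of 25 in the next window, both filled with ZNF and ZSCAN promoters. A low share was also found at chr6:131000001-132000000, where 2 of 21 regions were lost (9.52%) at a median WT rank of 26472. The histone gene window at 27 to 28 Mb of chromosome 6 had 7 of 65 lost and 53 kept. The longest run of adjacent lost regions held 13 regions over 2481 kb of chromosome 6 (chr6:49606782-52088042), with TFAP2D, TFAP2B and PKHD1 and the CRISP and DEFB genes. The longest run of kept regions held 19 over 940 kb of chromosome 19 in a ZNF cluster.

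Kept regions were narrower in Y641F. Their median peak width was 990 and 986 bp in WT and 574 and 723 bp in Y641F. In 13571 of 19593 kept regions (69.3%) both Y641F peaks were narrower than both WT peaks, and in 267 (1.36%) both were wider. The median ratio of Y641F to WT width was 0.708. At promoters the widths were 1210 and 1195 bp in WT and 732 and 898 bp in Y641F, and 76.6% were narrower. In regions outside promoters they were 715 and 719 bp against 420 and 512 bp, and 60.9% were narrower. With the top peaks 72.3% were narrower and 0.964% wider. A called width also moves with the depth and background of a library, and this was not tested.

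The fold over background within kept regions was compared with limma on log2 fold, centred on the median of each library. No region passed an adjusted p of 0.05, with 0 of 19593 higher (0%) and 0 of 19593 lower (0%) in Y641F. At an unadjusted p under 0.05 there were 2443 higher and 1571 lower regions. The balance depended on centring, with 1807 higher and 1827 lower after quantile normalization and 630 higher and 4385 lower without scaling. With median centring the lowest adjusted p from limma was 0.0707. In simulated data with 2 libraries per line and 200 of 19593 regions changed, 78 of 200 were found at a change of 1 on the log2 scale. At a change of 0.5 none of 200 was found. The adjusted p depends on how many regions change, which is unknown for the real data. These counts therefore do not give the power of the real comparison. The median difference was 0.07 on the log2 scale at promoters and -0.03 at other regions after centring. Among 10447 kept promoters, 184 had a difference over 0.5 on the log2 scale toward Y641F and 36 toward WT. In 76.6% of kept promoters both Y641F peaks were narrower than both WT peaks, so the fold there is an average over a shorter stretch. How far this moved the differences was not tested.

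The strongest kept promoters had high folds in both lines, and at some of them both Y641F values lay above both WT values. SLC35B4, a nucleotide sugar transporter, had 6.40 and 6.81 in WT and 6.85 and 7.17 in Y641F. ATP5F1B, the catalytic beta subunit of ATP synthase, had 6.83 and 7.19 in WT and 7.28 and 7.53 in Y641F. MTOR, the growth-regulating kinase, had 8.59 and 8.39 in WT and 8.28 and 8.43 in Y641F. METTL13, whose sequence is shown above, had 5.62 and 5.73 in WT and 5.62 and 7.60 in Y641F. CCDC150, BPGM, COQ8A, DESI2 and the shared start of DIS3 and PIBF1 were also among the 10 promoters with the best ranks. That shared start had 5.23 and 5.20 in WT and 6.49 and 6.32 in Y641F. COQ8A had 5.11 and 4.93 in WT and 5.99 and 5.75 in Y641F. At CCDC150, BPGM and DESI2 the values of the lines overlapped. At all of these named promoters both Y641F peaks were narrower than both WT peaks, so the Y641F folds are averages over shorter stretches.

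The kept promoters with the largest differences did not pass the test, although all 20 named below passed with the replicate number as a block. HMGA2, an architectural chromatin protein of embryonic cells, had folds of 2.69 and 2.65 in WT and 3.89 and 4.48 in Y641F, a difference of 0.80 ± 0.10 (SE) on the log2 scale (adjusted p = 0.0919, limma). Its peak was 3466 and 3555 bp wide in WT and 1079 and 1213 bp in Y641F, so the fold there is an average over a shorter stretch. PLCL1 had 4.56 and 4.19 in WT and 6.77 and 6.92 in Y641F, a log2 difference of 0.80. SMARCA2, the BRM ATPase of SWI/SNF, had 3.12 and 2.86 against 4.80 and 4.45, a log2 difference of 0.78. The start of BIVM and POGLUT2, SIDT2, EXT1, MAGI3, SUN1, IER5 and ACSL3 followed with log2 differences between 0.71 and 0.74. From HMGA2 to ACSL3, except at EXT1, both Y641F peaks were narrower than both WT peaks. In the other direction, TRMT10B, a tRNA methyltransferase, had 5.85 and 5.65 in WT and 2.98 and 2.98 in Y641F, a log2 difference of -0.80 ± 0.11 (SE). ZNF175 had 7.41 and 8.26 against 4.53 and 4.17, and ERCC1, a DNA repair nuclease subunit, 5.07 and 5.11 against 2.99 and 3.02. Peaks at TRMT10B, ZNF175 and ERCC1 were narrower in both Y641F libraries too, whereas at RERE they were wider. TERF2, which protects telomeres, had 6.24 and 8.88 against 3.96 and 4.35. PYDC1 with TRIM72, RERE, ZNF136, CALB1, MTUS2 and ZSCAN31 made up the 10 lowest, and in all 20 promoters, which were chosen for their differences, the values of the lines did not overlap. Their adjusted p from limma ranged from 0.0919 to 0.142.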

How the data were processed

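ATAC-seq peak lists of 2 EZH2 WT and 2 EZH2 Y641F libraries were used, with groups and replicate numbers from the sample titles. According to the methods, the authors trimmed reads with Trim Galore 0.6.5, aligned them to GRCh38/hg38 with BWA 0.7.17, removed duplicates and called peaks per library with MACS2 2.2.7.1. The deposited lists give for each peak a fold over local background (a ratio), a −log10 p, a −log10 q and a score, which is 10 times the −log10 q cut to a whole number and was not used. How the authors shifted reads for the transposase and the read depth are not given in the sources used here, and read counts, on which the study ran its differential test, were not analysed here, so no counting intervals are given.

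Regions were merged and classed in Python 3.11.15 with pandas 2.3.3 and numpy 2.4.6, and annotated with GENCODE 44. Where a library had several peaks in a region, the highest fold was taken. Kept regions were tested with limma 3.58.1 (R 4.3.3; log2 fold without a pseudocount, median centring, trend, Benjamini-Hochberg adjustment over all kept regions). The exact permutation tests went through every split of the libraries in Python. As a check of the overlap code, the Y641F peaks at 200 kept regions were removed, and 200 of 200 were then classed as lost. This outcome follows from the rule and does not test the lost regions themselves. Named promoters and regions were those with the best ranks by −log10 p, or the largest log2 difference where no region passed, and up to 6 members per list, with others named in addition after their values were seen. The members, the 56 gene lists and these rules were chosen with earlier results of these data known. Alternatives covered the peak threshold, number of peaks, overlap, merging, chromosome X, promoter window, left-out replicates and the limma settings. Chromosome Y was left out. Some members are not reported here.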

Additional observations from a re-analysis of the deposited data

How the results depend on the processing

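The counts depended on which peaks were used. Lost regions numbered 16562, 8035 at a −log10 q of at least 5, 2396 with the top peaks and 2378 with equal numbers on chromosomes 1 to 22. Gained regions numbered 249, and 26, 1480 and 1489 under these 3 settings. Kept regions numbered 19593, 5329 at a −log10 q of at least 5, and 9452 when a peak had to cover 50% of its region. The percent lost was 35.3, and 44.8, 11.6 and 11.6 under the 3 settings and 48.0 with 50% cover. The promoter share of lost regions was 8.89%, and 37.6%, 12.1%, 12.2% and 17.4% under these 4, 7.73% with promoters of 500 bp and 11.5% with 2 kb. Closed genes numbered 913, and 3012, 232, 232 and 2578 under the same 4, and newly open genes 8, and 250 and 252 with the top and equal numbers and 5 with promoters of 500 bp. Leaving out 1 library in turn gave 18162 to 30914 lost, 420 to 4028 gained and 19752 to 28818 kept regions, 38.7 to 54.9 percent lost, a promoter share of 6.92 to 11.8%, 1027 to 2165 closed and 10 to 82 newly open genes. Merging peaks within 500 bp and adding chromosome X left every count within 1.5 times. The cause of these shifts was not tested beyond the settings' own construction, in which fewer libraries or peaks enter.

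The named lost promoters and sites were chosen with strong WT peaks and no Y641F peak, which fixes their class under most settings, and 2 of the 10 other sites were not lost with 50% cover. Of the named gained promoters 0 of 10 were gained at a −log10 q of at least 5, 5 with the top peaks, 8 with 500-bp merging and 6 with 50% cover, of the 6 gained in both settings 3 with that merging and 4 with that cover, and of the other gained sites 1 of 10 at that −log10 q. In limma, replicate numbers did not pair the libraries (correlation of same-numbered deviations -0.0023 over 19593 kept regions), and a fit with the number as a replicate block called 310 regions higher and 173 lower, the 20 named promoters among them. Width-weighted folds gave 1 higher and 0 lower. Without WT replicate 1 the fit called 6 higher and 7 lower, assuming that the lone WT library varies like the Y641F libraries, and leaving out any other library called 0. Quantile scaling, no scaling, no trend, leaving out regions of low mean fold and the top peaks called 0 in each direction. The 20 named promoters kept their direction in all 192 values computed. Scaling without centring was added after seeing the data. The 2 libraries per line limit every comparison.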

Other observations

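Further gene lists were counted the same way, beside the 6.83% of all genes open in both WT libraries whose promoter was closed. Adhesion G protein-coupled receptors had 3 of 15 closed (ADGRB2, ADGRG1 and ADGRE2), and basic helix-loop-helix factors 3 of 41, among them NEUROD6 and BHLHE22, which act in neurons. Solute carriers had 18 of 210 closed (8.57%), with SLC38A4, SLC24A2 and SLC38A3 closed in both settings. SLIT1, a repellent of growing axons, was closed in both settings too, with folds of 4.20 and 4.39 in WT. None of 19 AP-1 and immediate early genes, 16 MHC genes, 8 cyclin-dependent kinase inhibitors, 26 cyclins and 28 replication licensing and fork genes was closed with every peak. CDKN2A, the inhibitor best known as a Polycomb target, had folds of 4.41 and 5.44 in WT and 4.19 and 5.16 in Y641F. Of 389 olfactory receptor genes 378 had no promoter peak in any of the 4 libraries, and of 149 keratin and keratin-associated genes 141 had none.

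By the gene window, LOXHD1, a protein of hair cells, and LTB, a membrane lymphotoxin, were the closed genes with the best WT rank in both settings, with WT folds of 7.34 and 7.11 at LOXHD1 and 4.95 and 4.78 at LTB. Their merged regions reached a Y641F peak outside the window, so these regions were not among the lost regions.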
